A study of Homo sapiens with 10 samples.

Results

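Of the 46427 genes listed in the deposited table, 10 that encode enzymes of chondroitin sulfate synthesis were examined: CHPF, CHPF2, CHSY1, CHSY3, CSGALNACT1, CSGALNACT2, CHST3, CHST11, CHST12 and XYLT1. All 10 had a row with values in each of the 10 libraries, and all 10 passed the filters on low values used here. They were picked by gene symbol. CHPF led to the choice, because its level was more than 2-fold above 2D culture in CR, PR, DR and TS H460 cells and in TS A549 cells. The values of CHPF in those comparisons are therefore given as a description without a test. The other 9 were taken as members of its pathway, with earlier results of these data known. They do not cover the whole pathway, and genes outside them, such as XYLT2 and CHST7, are described with the gene lists.

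Poly(A) RNA was sequenced from H460 and A549 cells, which are established human lung cancer cell lines. Parental H460 cells in 2-dimensional (2D) culture gave 3 libraries. H460 cells that had survived cisplatin (CR, 4 µM) or doxorubicin (DR, 0.5 µM) gave 1 library each, and those that had survived paclitaxel (PR, 5 nM) gave 2. Each drug was given for 3 days and followed by 3 days of fresh medium, with doses and times from the study's methods. The whole culture was then re-plated, and the cells that attached were taken as drug-resistant. The methods do not say whether parental cells were re-plated. Tumor spheroid (TS) cells, which the labels call CTC after circulating tumor cells, gave 1 library of H460 and 1 of A549, and 2D A549 cells gave 1. TS cells were grown unattached in a medium of their own with B27 and growth factors, and were passaged at least 3 times. Detachment, medium and passage therefore cannot be told apart as sources of a difference from 2D cells. Drug-resistant cells here are the survivors of a single short exposure of 1 line, and the sources do not mention a vehicle-treated control.

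The labels do not say whether libraries of 1 group came from separate cultures, so the spread between them may be technical. Between 59499787 and 89541774 reads were counted on genes per library. KRT8 and KRT18, keratins of epithelial cells, reached an FPKM of at least 190.4 in all 10 libraries, whereas CDH1 was at most 0.0266 in every H460 library and EPCAM at most 1.04 in any library. The 4 endothelial markers stayed at or under an FPKM of 0.463. Of 5 blood cell markers, PTPRC, CD3E and MS4A1 were at most 0.157, whereas CD68 was 15.0 to 69.8 and LYZ reached 37.7 in TS A549 cells. Of 6 fibroblast markers, 3 reached an FPKM of 1 in any library, with LUM highest at 26.6 in TS H460 cells. Library names in the table take 2 forms, with a hyphen in parental 2, CR, DR and PR 2 and without one in the other 6 libraries. This split crosses parental and drug-resistant cells, and differences within each form are given where they bear on a result.

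Chondroitin sulfate is a long sulfated sugar chain that is built in the Golgi apparatus on serine residues of core proteins, which are then called proteoglycans. Xylosyltransferases such as XYLT1 start a short linker that chondroitin and heparan sulfate have in common, and CSGALNACT1 or CSGALNACT2 adds the first N-acetylgalactosamine that commits the chain to chondroitin. CHSY1 and CHSY3 lengthen the chain together with their relatives CHPF and CHPF2, and sulfotransferases place sulfate on carbon 6 (CHST3) or carbon 4 (CHST11 and CHST12) of the N-acetylgalactosamine. Such chains coat cancer cells and fill the matrix around them, where they bind growth factors and receptors.

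CHPF spans chr2:219538947-219543787 on the minus strand of GRCh38, and its 5′ end overlaps TMEM198, a gene on the plus strand, by 125 bases. The RefSeq promoter windows of GRCh38.p14 held the 250 bases before the annotated start of 9 of the 10 genes. A window of CHPF, chr2:219543810-219544059, held the palindrome TGACGTCA, the core of the cyclic AMP response element, at 2 places. They lie 222 and 177 bases before the start and are printed in capitals, at chr2:219544013-219544042 and chr2:219543968-219543997. Both printed stretches lie within the span of TMEM198 (chr2:219543663-219550595), and this window was marked as overlapping an untranslated region of TMEM198. Another window of CHPF, chr2:219543098-219543347, held CCAAT and not TGACGTCA. The third sequence is from the promoter of CHSY1, chr15:101252049-101252078 on the minus strand, with the E-box palindrome CACGTG 17 bases before the start. It is shown because CHSY1, a chain-lengthening partner of CHPF, followed another pattern across the conditions.
CHPF distal: gcctctgctccTGACGTCActcagggcgca
CHPF proximal: cgggctgcttcTGACGTCAcatgggacgca
CHSY1: gtcaaacttcggcCACGTGaaccgcccctc
TGACGTCA was found in 1.65% of 35116 promoter windows of this length, and 19 windows (0.0541%) held it at least 2 times. Of the 9 members with a window, CHPF was the 1 with TGACGTCA and CHSY1 the 1 with CACGTG, which 6.34% of all windows held. GGGCGG, the GC box, was found in all 9 and in 42.6% of all windows, whereas TATAAA was in none of the 9 and in 10.7% of all windows. CCAAT was found in 1 of the 9, CHPF, and in 32.0% of all windows. A member was counted if any of its windows held the motif, whereas the shares are over single windows. Both strands were searched, and no match overlapped that of another motif. The motifs were chosen after the CHPF sequence had been seen, and a match describes letters and not binding.

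CHPF, the chondroitin polymerizing factor that works with CHSY1 in chain elongation, was higher in every drug-resistant and TS library than in 2D cells of the same line. Its FPKM, a level scaled by transcript length and library size, was 12.3, 9.89 and 11.0 in parental replicates 1 to 3. In drug-resistant H460 cells it was 41.9 in CR, 36.3 and 42.1 in the PR replicates and 48.1 in DR. The mean rose from 11.1 ± 1.23 (SD, n = 3) to 42.1 ± 4.83 (SD, n = 4), a ratio of 3.80. TS H460 cells had an FPKM of 26.0, between the parental and the drug-resistant libraries. In A549 cells, the level was 10.1 in 2D and 34.3 in TS culture. Ordered by level, DR came first, followed by CR and PR, TS A549, TS H460, and then the 2D cells of both lines. CR lay between the 2 PR replicates, and 2D A549 lay between parental 1 and parental 2, so these neighbours did not differ beyond the spread. As all libraries hold RNA of a whole culture, more cells with a given level and a higher level per cell cannot be told apart.

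**Figure D1:**
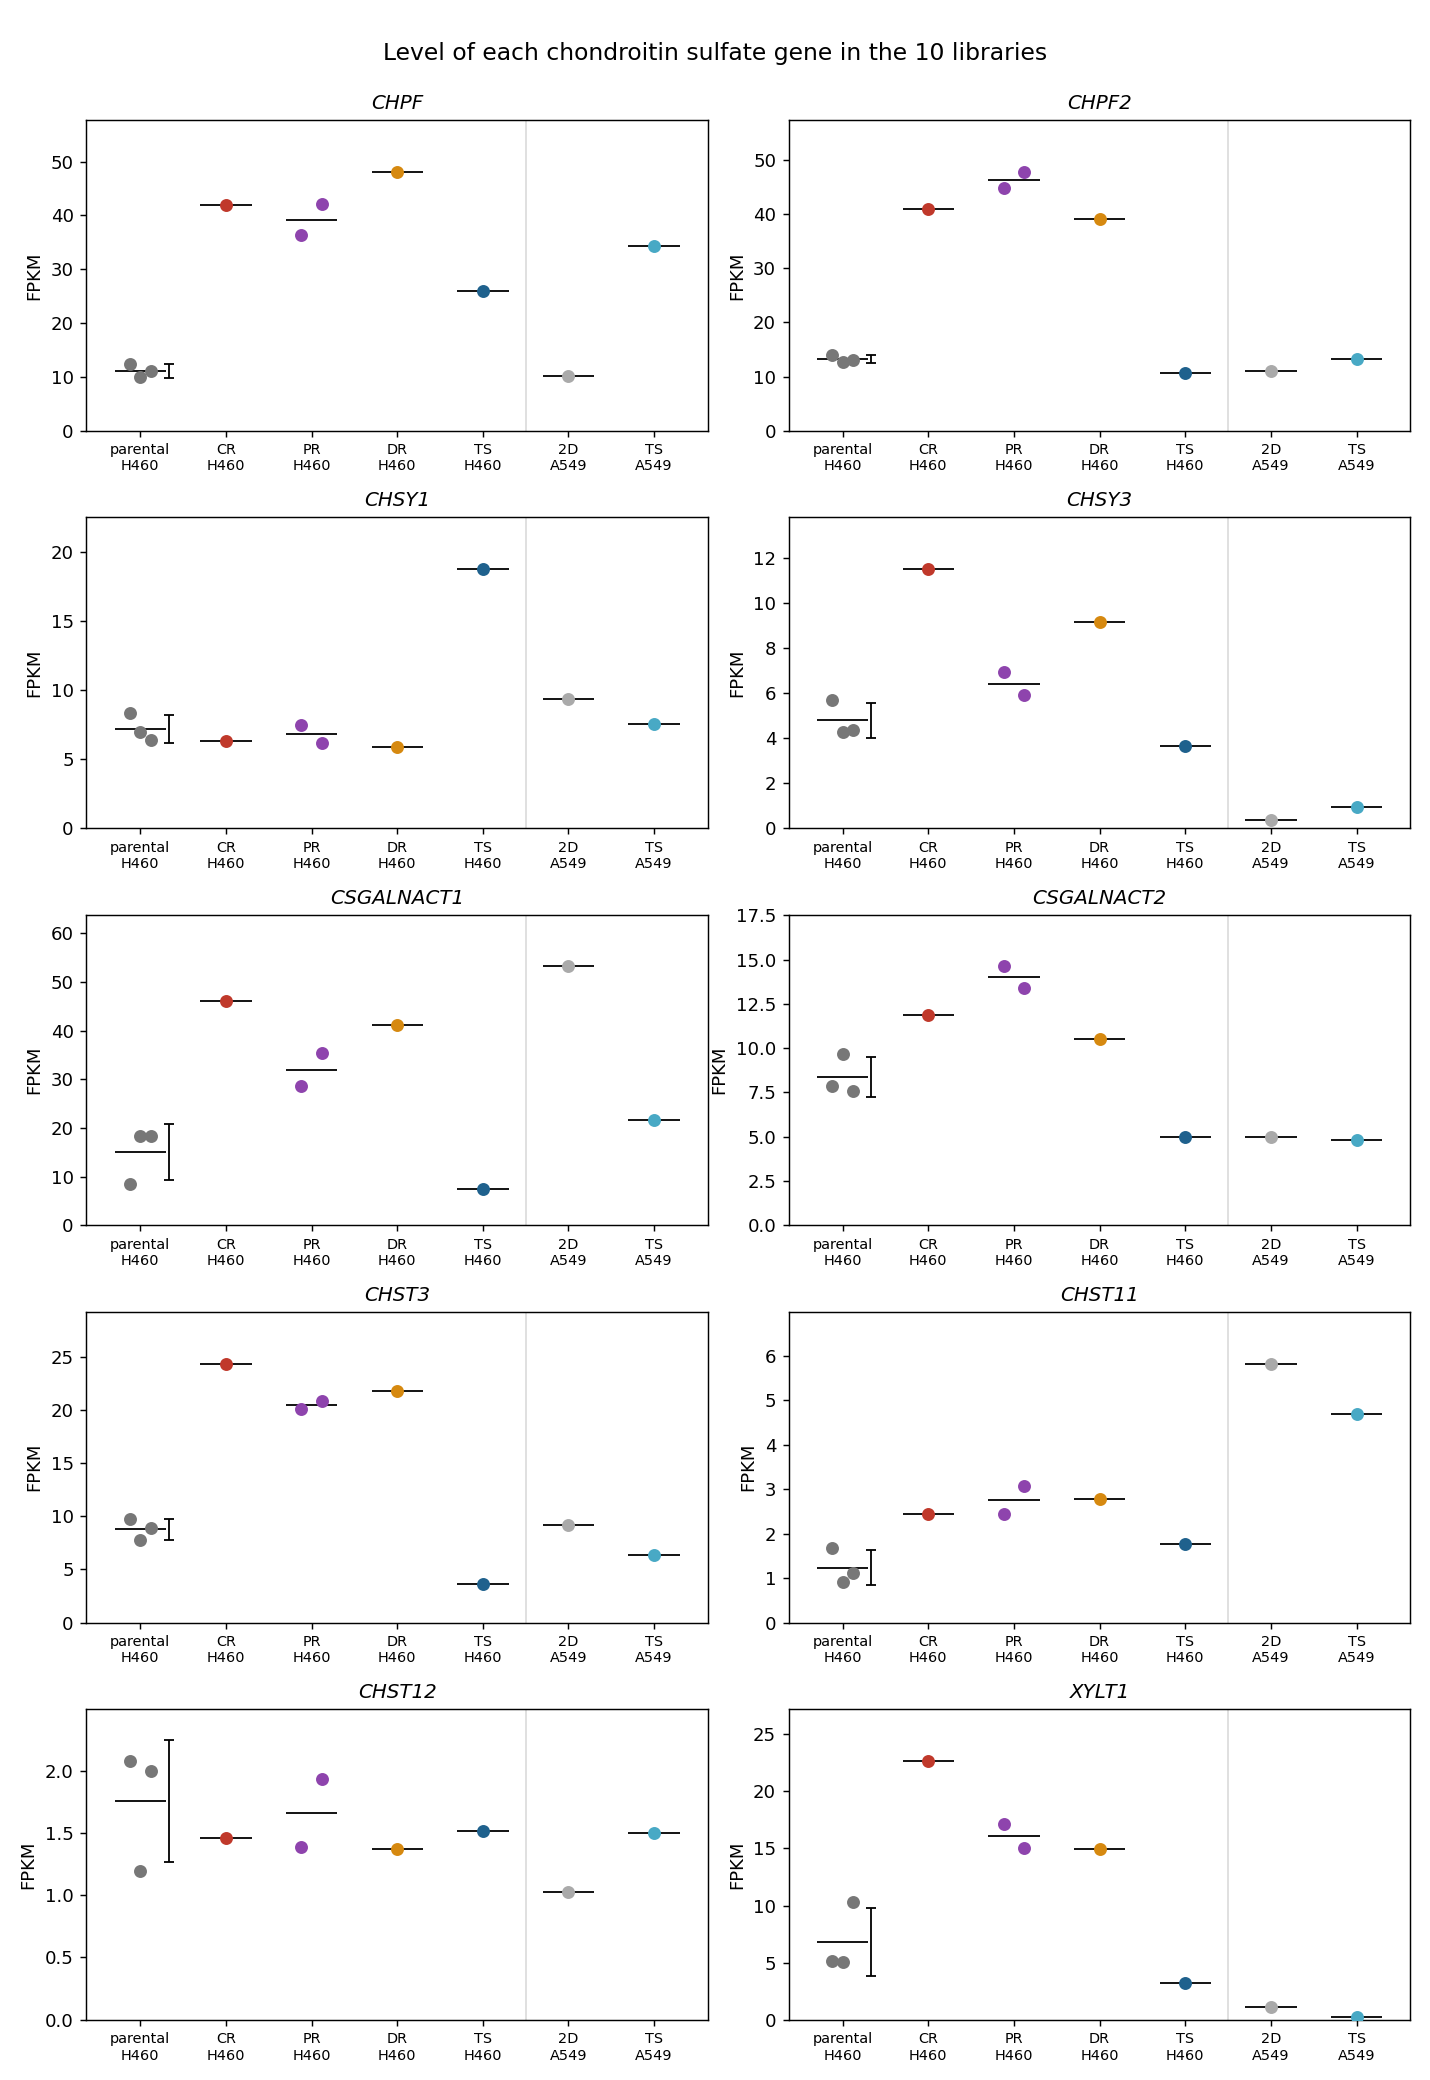
FPKM of each of the 10 genes (vertical axes, linear from 0) in each library (points) by group (horizontal axes), with black lines for group means and bars for the SD of the 3 parental libraries. All genes but CHSY1 and CHST12 stand above all parental points in each drug-resistant group, and CHSY1 stands out in TS H460 cells, at 18.8.

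CHPF2, a close relative of CHPF in the chain-elongating complex, rose with drug treatment to a similar degree. Its FPKM was 14.0, 12.6 and 13.1 in the parental libraries against 41.0 in CR, 44.9 and 47.9 in PR and 39.2 in DR. Every drug-resistant library exceeded every parental library about 3-fold, with a ratio of means of 3.27. In the edgeR quasi-likelihood test of the 4 drug-resistant against the 3 parental libraries, the log2 fold change was 1.64 (SE 0.16, adjusted p = 0.000202). The log2 fold change of CHPF in the same fit was 1.85. CHPF2 did not follow CHPF into TS culture, with an FPKM of 10.6 in TS H460 cells, below the 3 parental libraries, and of 13.3 in TS against 11.1 in 2D A549 cells.

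CSGALNACT1, which adds the first N-acetylgalactosamine, rose in drug-resistant cells and was lower in TS cells of both lines. Its FPKM was 8.37, 18.3 and 18.3 in the parental libraries, 46.0 in CR, 28.6 and 35.3 in PR and 41.2 in DR. Parental 1 was lowest, and all 4 drug-resistant libraries lay above the 3 parental ones. The test gave a log2 fold change of 1.28 (SE 0.31, edgeR adjusted p = 0.0104), and 0.97 without parental 1 (adjusted p = 0.0203). TS H460 cells had an FPKM of 7.40, and in A549 cells the level was 53.2 in 2D and 21.6 in TS culture. CSGALNACT2, the second enzyme of this step, rose by less. Its FPKM was 7.89, 9.67 and 7.57 in parental cells and between 10.5 and 14.6 in the drug-resistant libraries, without overlap. It differed by a log2 fold change of 0.53 (SE 0.16, edgeR adjusted p = 0.0268). This call was lost without parental 1 (adjusted p = 0.0835), PR 1 (0.0534), PR 2 (0.0592) or CR (0.0710), with log2 fold changes between 0.47 and 0.53, and with no filter on low counts (0.0970).

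CHSY1 and CHSY3, the chain-elongating enzymes, did not move alike. The FPKM of CHSY1 was 8.33, 6.92 and 6.36 in parental cells, and the drug-resistant libraries overlapped these values, from 5.89 in DR to 7.47 in PR 1. Its log2 fold change was -0.23 (SE 0.16, edgeR adjusted p = 0.304), and its sign differed between the 2 forms of library name. In TS H460 cells CHSY1 reached 18.8, a ratio of 2.60 to the parental mean, whereas in A549 cells it was 9.36 in 2D and 7.55 in TS culture. CHSY3 had an FPKM of 5.68, 4.29 and 4.37 in parental cells, 11.5 in CR, 9.16 in DR, and 6.93 and 5.92 in PR. All 4 drug-resistant libraries were above the parental range, with PR 2 closest to it. The log2 fold change was 0.74 (SE 0.26, edgeR adjusted p = 0.0502), just outside the threshold of 0.05. It passed with upper-quartile scaling (0.89, adjusted p = 0.0204), scaling by library size (0.0318), DESeq2 (0.0265) and limma on FPKM (0.0394), as well as without PR 1 (0.0438) or PR 2 (0.0253). In A549 cells CHSY3 was low, at 0.349 in 2D and 0.926 in TS culture.

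Among the sulfotransferases, the 6-O-sulfotransferase CHST3 showed the clearest rise. Its FPKM was 9.75, 7.77 and 8.91 in parental cells, 24.4 in CR, 20.1 and 20.8 in PR and 21.8 in DR. The 4 drug-resistant values lay within a narrow band, all above the highest parental one, and the log2 fold change was 1.22 (SE 0.19, edgeR adjusted p = 0.00112). In TS H460 cells CHST3 was 3.60, below every parental library. CHST11, the main 4-O-sulfotransferase, was low in H460 cells, at 1.68, 0.919 and 1.10 in parental libraries. It was 2.44 in CR, 2.45 and 3.07 in PR and 2.77 in DR, again without overlap (log2 fold change 1.04, SE 0.24, edgeR adjusted p = 0.00748).

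CHST12, the other 4-O-sulfotransferase of the group, gave no difference that held on both scales of the table. Its FPKM was 2.08, 1.19 and 2.00 in parental cells, 1.46 in CR, 1.39 and 1.93 in PR and 1.37 in DR, so that all 4 drug-resistant libraries lay between parental 2 and the other 2 parental libraries. As RPM, reads scaled by the library's total on genes alone, it had 19.6, 16.2 and 20.4 in parental cells, 23.8 in CR, 20.0 and 19.7 in PR and 22.2 in DR, with CR and DR highest. The edgeR test of counts gave a log2 fold change of 0.16 (SE 0.18, adjusted p = 0.511), and limma on log2(FPKM + 1) gave -0.11 (adjusted p = 0.631). The RPM behind an FPKM of 1 ranged from 9.45 in parental 1 to 18.6 in 2D A549 cells for CHST12, but only from 7.81 to 8.72 for CHST3. This ratio depends on the transcript length that the authors' pipeline assigned in each library, and its part in the result was not tested.

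**Figure D2:**
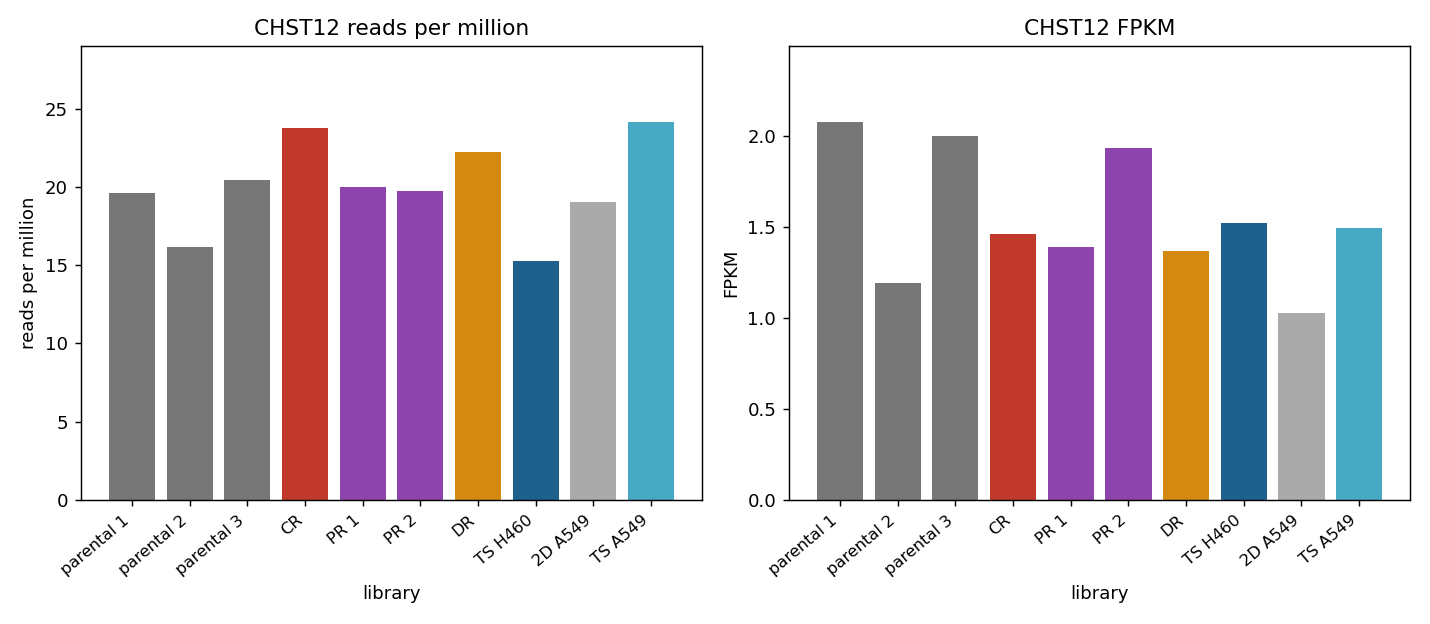
CHST12 in the 10 libraries as RPM (left, bars from 0) and as FPKM (right, bars from 0). CR and DR H460 cells are highest among the H460 libraries on the left, at 23.8 and 22.2, and not on the right, at 1.46 and 1.37.

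XYLT1, the xylosyltransferase that starts the linker, rose in drug-resistant cells and had its lowest levels in A549 cells. Its FPKM was 5.18, 5.08 and 10.3 in parental cells, 22.7 in CR, 17.2 and 15.1 in PR and 14.9 in DR. Parental 3 was about 2-fold above the other 2 but below every drug-resistant library. The log2 fold change was 1.28 (SE 0.31, edgeR adjusted p = 0.0110), and 1.74 without parental 3 (adjusted p = 0.00155). With another library left out it was as low as 1.07. Over all alternative fits (edgeR, DESeq2 or limma), the highest adjusted p was 0.0481, close to the threshold. TS cells were lower than 2D cells in both lines, with 3.26 in TS H460 cells, and 1.08 in 2D against 0.200 in TS A549 cells, where 157 reads were counted.

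At an edgeR adjusted p under 0.05, 6 of the 9 members tested were higher in drug-resistant than in parental H460 cells. They were CHPF2, CSGALNACT1, CSGALNACT2, CHST3, CHST11 and XYLT1, and 3 did not pass. Of these 3, CHSY3 had an unadjusted edgeR p of 0.0177. None was lower, also at an unadjusted p under 0.05 or with DESeq2 and limma, which each called 7 higher. Of all 15101 genes fitted, 35.3% were called, 18.2% higher and 17% lower. The median log2 fold change was 1.04 over the 9 members and 0.011 over all genes. The members were chosen with earlier results of these data known, so the values describe these 9 genes and not a set picked blind. Of these 9, 7 had all 4 drug-resistant libraries above all 3 parental ones in FPKM, as had 20.6% of 12331 genes with a mean FPKM of at least 1. Between 5 and 6 members were called when any of the 7 libraries was left out. With the form of the library name as a term, edgeR called 6. Within the hyphen form (3 drug-resistant libraries against 1 parental), the difference in log2(FPKM + 1) was 2.05 for CHPF, 1.68 for CHPF2, 1.41 for CHST3 and 0.27 for CSGALNACT2. Within the other form (1 against 2), it was 1.56, 1.66, 1.03 and 0.84 in the same order. CHSY1 (-0.15 and 0.03) and CHST12 (0.23 and -0.35) were the 2 members whose sign differed between the forms.

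Markers of other cell types moved with drug treatment as well. The summed FPKM of the 6 fibroblast markers was 1.29 to 6.00 in parental and 6.08 to 19.6 in drug-resistant libraries, with COL1A1, LUM and PDGFRB as the 3 markers that reached an FPKM of 1, and was 28.3 in TS H460 cells, where LUM alone had 26.6. That of the 5 blood cell markers was 15.1 to 16.9 in parental and 30.9 to 57.9 in drug-resistant libraries, nearly all from CD68, and 107.5 in TS A549 cells, where LYZ had 37.7. COL1A2 was at most 0.0419 in any library. Their part in the results was not tested.

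Each drug was also compared on its own with the mean of the same 3 parental libraries, which these comparisons share. With a single CR, DR, TS H460, 2D A549 and TS A549 library, these differences in log2(FPKM + 1) have no replicate check. CHPF was chosen for these differences, which were 1.83 in CR, 2.03 in DR and 1.74 in PR cells, and is left out of the counts. In CR cells 5 of the other 9 members were more than 2-fold higher and none was more than 2-fold lower, where 12.9% of all genes were called, 5.73% higher and 7.2% lower. They were CHPF2 (1.56), CHSY3 (1.12), CSGALNACT1 (1.63), CHST3 (1.38) and XYLT1 (1.66). In DR cells, 4 members were more than 2-fold higher and none lower (11.4% of all genes, 5.6% higher and 5.78% lower), namely the same genes without CHSY3, which differed by 0.82. In PR cells it was again those 4, with none lower (13.2% of all genes, 7.19% higher and 6.03% lower), and CHSY3 differed by 0.37. CHST11 had a ratio of FPKM of 2.25 in DR and 2.23 in PR cells, and was under the limit because 1 is added to its low FPKM. Over the 9 members the median difference was 1.12 for CR, 0.82 for DR and 0.76 for PR cells, against -0.04, -0.02 and 0.03 over all genes.

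**Figure D3:**
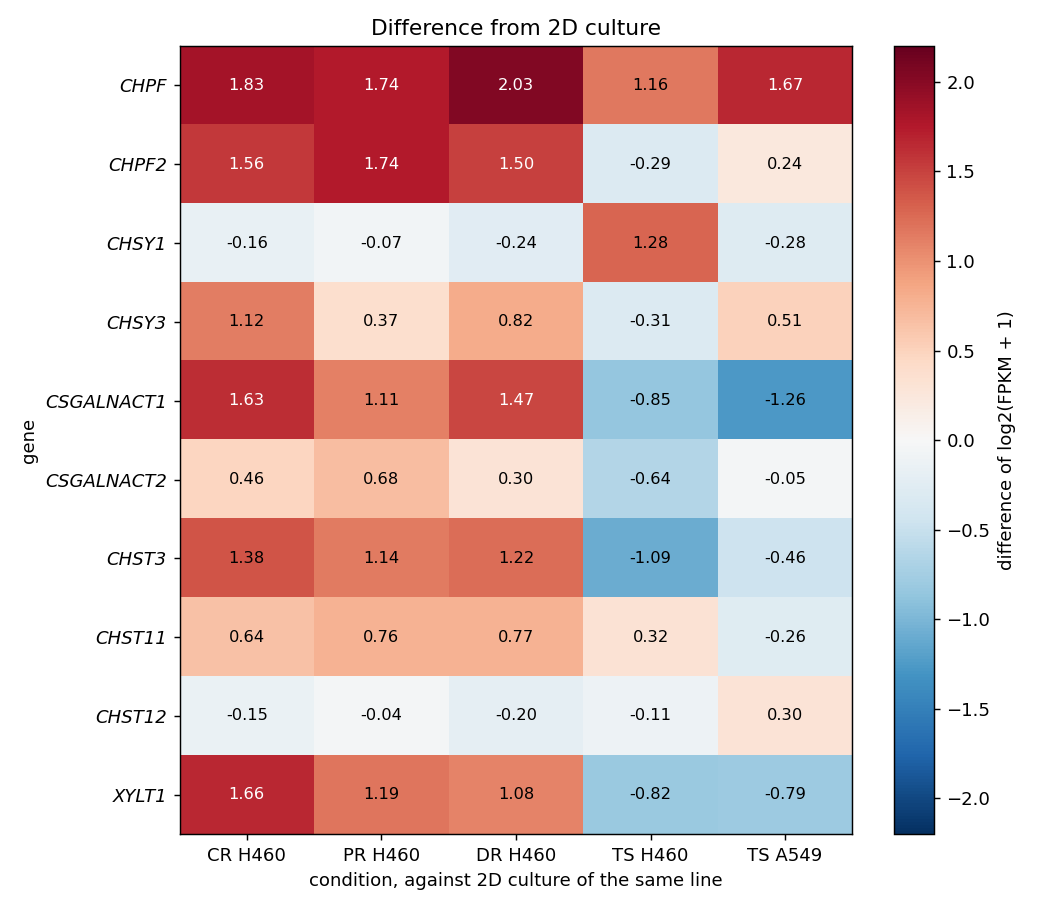
Difference in log2(FPKM + 1) of each gene (rows) between each condition (columns) and the mean of 2D cells of the same line, coloured from blue (lower) to red (higher). CHPF is above 1 in all 5 columns, whereas XYLT1, CSGALNACT1 and CHST3 are above 1 in the 3 drug columns and below 0 in both TS columns.

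PR cells, the 1 drug-resistant group with replicates, allowed a test of their own against the 3 parental libraries. CHPF2 (log2 fold change 1.66, SE 0.22, edgeR adjusted p = 0.00147), CHST3 (1.06, SE 0.24, adjusted p = 0.0115) and CHST11 (1.00, SE 0.31, adjusted p = 0.0424) were higher. Hence 3 of 9 members were called, where 24.6% of 15155 genes were called and 13.8% were higher. XYLT1 (1.09, adjusted p = 0.0525), CSGALNACT1 (0.96, adjusted p = 0.0755) and CSGALNACT2 (0.60, adjusted p = 0.0802) lay outside the threshold, and these 3 passed with DESeq2, which called 6 members. Without PR 1 or without PR 2, 1 member was called, CHPF2. CHPF had a log2 fold change of 1.66, given without a test. CHST11 was lost without PR 1 (adjusted p = 0.106), PR 2 (0.290), parental 2 (0.124) or parental 3 (0.0717), and with the filterByExpr filter (0.0579) or no filter (0.0767). CHST3 was lost without PR 1 (0.0636) or PR 2 (0.102). Leaving out parental 3 brought in CSGALNACT1 (0.0436) and XYLT1 (0.00427).

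The microtubule drug was set against the DNA-damaging drugs by comparing the 2 PR libraries with CR and DR, a contrast for which CHPF had not been chosen. CHPF differed by -0.32 on the log2 scale (SE 0.22, edgeR adjusted p = 0.630). No member and no gene of 15101 was called (0%), with 1644 genes at an unadjusted p under 0.05, 345 called by DESeq2 and 372 by limma, neither of which called a member. CHSY3 was the 1 member at an unadjusted p under 0.05 (log2 fold change -0.79, SE 0.24, edgeR adjusted p = 0.279). In FPKM it was 6.93 and 5.92 in PR cells against 11.5 and 9.16 in CR and DR cells.

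In TS cells, the log2(FPKM + 1) difference of CHPF from 2D culture, for which it was chosen, was 1.16 in H460 and 1.67 in A549 cells. CSGALNACT1 (-0.85 and -1.26), CHST3 (-1.09 and -0.46), XYLT1 (-0.82 and -0.79) and CSGALNACT2 (-0.64 and -0.05) were lower in both. Of the 9 members beside CHPF, CHSY1 was more than 2-fold higher and CHST3 more than 2-fold lower in TS H460 cells, where 3.4% of all genes were called, 1.48% higher and 1.91% lower. In TS A549 cells none was more than 2-fold higher and CSGALNACT1 was more than 2-fold lower, where 7.66% of all genes were called, 5.1% higher and 2.56% lower. The added 1 lessens differences of low values. In FPKM without it, the 2D level of XYLT1 was 5.40 times and that of CSGALNACT1 2.47 times the TS level in A549 cells. There, TS cells had 2.65 times the CHSY3 of 2D cells. In H460 cells the parental means of XYLT1 and CSGALNACT1 were both over 2 times the TS level, the latter 2.03 times. Single parental libraries lay closer, with CSGALNACT1 at 8.37 in parental 1 against 7.40 in TS H460 cells. XYLT1 was 5.08 in parental 2 against 3.26 in TS H460 cells. With both lines fitted together (2 TS against 4 2D libraries, cell line as a covariate), edgeR called none of the 9 members tested and 42 of 15064 genes (0.279%), 0.226% higher and 0.0531% lower. DESeq2 and limma called no member either, and 1181 genes had an unadjusted p under 0.05. Among these were CHST3 (log2 fold change -0.95, SE 0.28, edgeR adjusted p = 0.338), XYLT1 (-1.55, SE 0.48, adjusted p = 0.362) and CSGALNACT1 (-1.11, SE 0.39, adjusted p = 0.474). The log2 fold change of CHPF in this fit was 1.46.

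The same fit compared A549 with H460 cells, with 2 libraries against 4 and culture as a covariate. CHPF did not differ detectably between the lines (log2 fold change 0.08, SE 0.24, edgeR adjusted p = 0.836). CHST11 (1.91, SE 0.32, adjusted p = 0.00661) and CSGALNACT1 (1.71, SE 0.36, adjusted p = 0.0157) were higher in A549 cells. CHSY3 (-2.94, SE 0.53, adjusted p = 0.00882) and XYLT1 (-3.18, SE 0.53, adjusted p = 0.00657) were lower. Hence 4 of 10 members were called, where 24.4% of 15064 genes were, 14.7% higher and 9.7% lower. The count was also 4 with each parental library left out, with DESeq2 and with limma. In FPKM, XYLT1, which starts the linker, was 1.08 in 2D A549 cells against at least 5.08 in parental H460 cells, and CSGALNACT1, which commits the chain, was 53.2 against at most 18.3.

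The wider pathway was described with 8 gene lists. In the linker list, XYLT1 was the 1 of 7 tested genes called in drug-resistant against parental cells (median log2 fold change 0.28). For this and the lists that follow, the median over all genes was 0.011, and 35.3% of all genes were called, 18.2% higher and 17% lower. Genes that passed the filter on low counts in 1 of the groups alone (BGN, THBD, HS3ST2 and NDST4) are left out of the counts. The other xylosyltransferase XYLT2 had 0.28 (edgeR adjusted p = 0.425), and the linker galactosyltransferase B4GALT7 had 0.41 (adjusted p = 0.110). Of the 5 chain-polymerising genes tested beside CHPF, 3 were higher, all of them members described above. Of 5 tested genes for chondroitin sulfation, 3 were higher and none lower (18.2% and 17% of all genes). The third beside CHST3 and CHST11 was CHST15, which adds a second sulfate to a 4-sulfated unit. Its FPKM was 12.4, 15.0 and 13.8 in parental cells, 19.7 in CR, 21.2 and 22.8 in PR and 21.7 in DR (log2 fold change 0.56, SE 0.16, edgeR adjusted p = 0.0190). CHST7 had 0.17 (adjusted p = 0.517), and CHST13 was at most 0.0234 in these 7 libraries and was not tested.

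In the dermatan branch, where glucuronic acid is turned into iduronic acid, 1 of 4 genes was higher, the epimerase DSE (log2 fold change 0.55, SE 0.18, edgeR adjusted p = 0.0385). Its FPKM was 2.34, 2.64 and 2.32 in parental cells, 2.52 in CR, 4.20 and 4.19 in PR and 3.56 in DR, and CR lay within the parental range. As RPM, nearer to the counts tested, it had 22.3, 28.2 and 24.7 in parental cells, 28.3 in CR, 45.1 and 36.5 in PR and 40.6 in DR. For the supply of sugar nucleotides and active sulfate, 2 of 11 genes were higher and none lower (median -0.11), a share close to the 18.2% of all genes that were higher. These were UXS1, which makes the UDP-xylose that XYLT1 uses (0.69, SE 0.22, adjusted p = 0.0338), and the sulfate donor carrier SLC35B3 (0.54, SE 0.18, adjusted p = 0.0411). The FPKM of UXS1 was 28.0, 36.4 and 24.1 in parental cells, 58.4 in CR, 39.4 and 42.3 in PR and 56.0 in DR.

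Core proteins that can carry these chains had 4 of 7 genes higher and none lower, with a median of 1.13, where 35.3% of all genes were called. CD44, a cell-surface receptor for hyaluronan, had an FPKM of 37.6, 36.8 and 39.9 in parental cells, 108.8 in CR, 147.4 and 137.7 in PR and 131.1 in DR (log2 fold change 1.73, SE 0.19, edgeR adjusted p = 0.000226). In TS H460 cells CD44 was 8.25, below all other libraries. APLP2, a relative of the amyloid precursor protein, rose from between 168.3 and 255.2 to between 581.5 and 705.6 (1.43, SE 0.24, adjusted p = 0.00150). SRGN, the proteoglycan of secretory granules, rose from between 329.2 and 526.5 to between 620.4 and 803.9 (0.76, SE 0.22, adjusted p = 0.0238). BCAN was also called, at an FPKM of at most 0.569 in these 7 libraries. THBD, the thrombomodulin gene, had 2 to 8 reads in parental libraries, 42 in CR, 168 and 113 in PR and 27 in DR, and passed the filter through drug-resistant cells alone. VCAN, the versican core protein, varied from 0.502 to 4.70 among parental libraries and had 1.13 (SE 0.79, adjusted p = 0.283).

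For the heparan sulfate chain, the parallel product of the same linker, 1 of 13 genes was higher and 3 were lower (median -0.19), where 35.3% of all genes were called. NDST2, an N-deacetylase and N-sulfotransferase, had 0.64 (SE 0.22, edgeR adjusted p = 0.0456) and EXTL2, a transferase acting at the linker, had -0.81 (SE 0.21, adjusted p = 0.0126). The chain polymerases EXT1 (0.45, adjusted p = 0.0778) and EXT2 (0.30, adjusted p = 0.185) did not pass. HS3ST2 had an FPKM of 0.654 and 1.59 in PR cells and was at most 0.165 in the CR, DR and parental libraries, so that it passed the filter through PR cells. HS3ST1 (-1.29, SE 0.41, adjusted p = 0.0330) was at most 0.447 in these libraries, and HS3ST3A1 (-0.87, SE 0.21, adjusted p = 0.00933) is nearly identical to HS3ST3B1 in part, so reads may be shared between them.

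Among genes of lysosomal breakdown, 3 of 10 tested were higher and 1 lower (median 0.42), close to the 35.3% of all genes called. HEXA, a subunit of hexosaminidase, which removes terminal N-acetylgalactosamine, had an FPKM of 3.17, 3.07 and 2.65 in parental cells, 7.52 in CR, 6.79 and 9.05 in PR and 8.83 in DR (log2 fold change 1.37, SE 0.17, edgeR adjusted p = 0.000402). IDUA (2.68, SE 0.35, adjusted p = 0.000499) and IDS (1.14, SE 0.20, adjusted p = 0.00185) act on iduronic acid, which is found in dermatan and heparan sulfate and not in chondroitin sulfate. IDUA rose from an FPKM of 0.735, 1.01 and 1.71 to 9.53 in CR, 7.47 and 6.09 in PR and 8.42 in DR. HYAL1, a hyaluronidase, was lower (-1.45, SE 0.50, adjusted p = 0.0449), with overlap between the groups, and had an FPKM of 17.6 in TS H460 cells against 1.83 to 4.53 in parental cells.

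**Figure D4:**
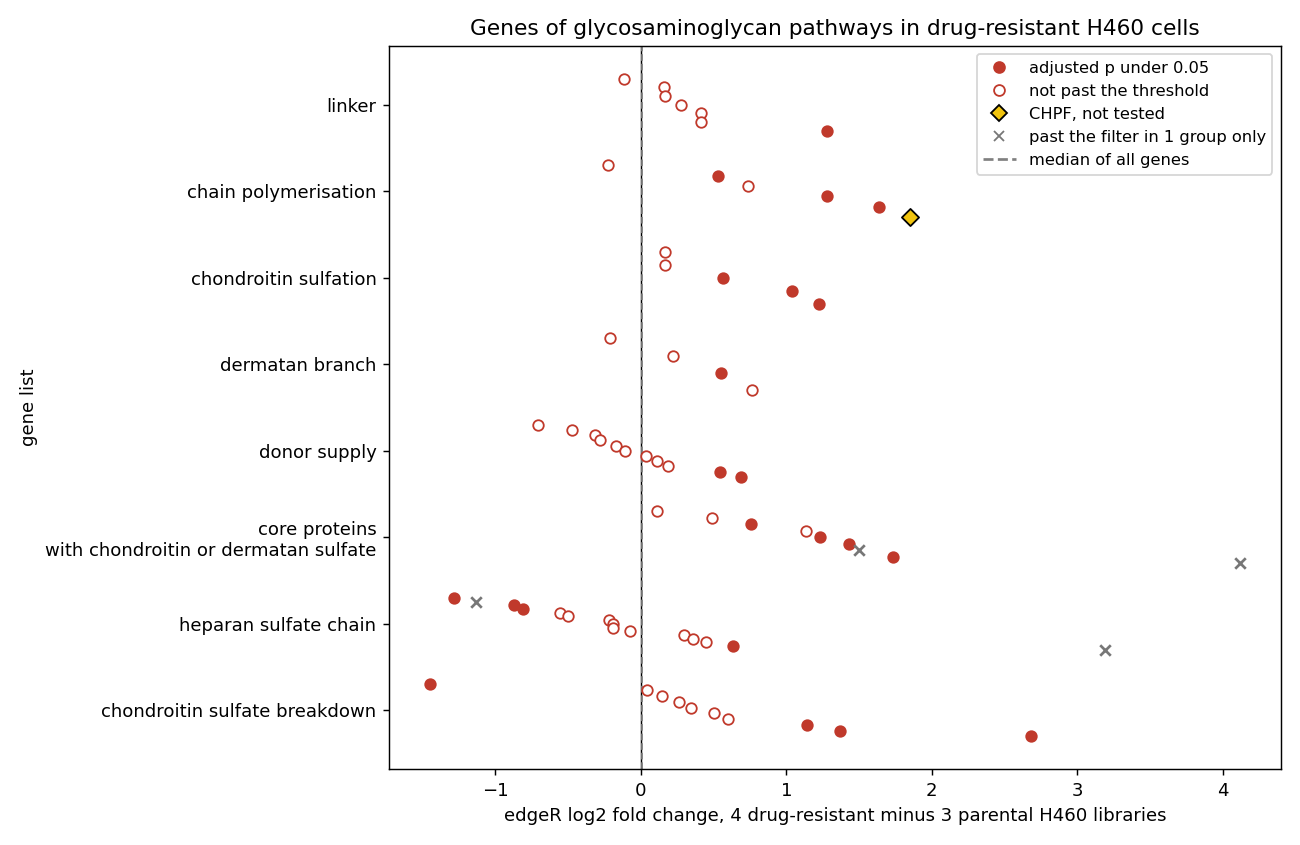
edgeR log2 fold change of 4 drug-resistant against 3 parental H460 libraries (horizontal axis) for each tested gene of the 8 lists (rows), filled where the adjusted p was under 0.05, with a cross for genes past the filter in 1 group only. Filled points lie to the right of 0 in the chondroitin, linker, dermatan, donor and core protein lists, whereas the heparan list has 1 higher and 3 lower and the breakdown list 3 higher and 1 lower.

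The genes whose profile over the 10 libraries was nearest to that of CHPF were CTSD, SERPINI1, H3C6, BTG1 and TRIM22, in this order, among 12321 genes with a mean FPKM of at least 1. Likeness was the root mean square difference of log2(FPKM + 1) centred on each gene's mean, and was 0.24 for CTSD and 0.34 for TRIM22. This measure draws low values together, and SERPINI1, H3C6 and TRIM22, at a mean FPKM of at most 0.456 in parental cells, had ratios of drug-resistant to parental means of 14.7, 8.13 and 10.9, against 3.85 for CTSD, 3.86 for BTG1 and 3.80 for CHPF. CTSD, the lysosomal protease cathepsin D, had an FPKM of 188.5, 110.3 and 165.6 in parental cells, 604.6 in CR, 463.3 and 599.7 in PR, 713.9 in DR and 225.9 in TS H460 cells, and in A549 cells 130.5 in 2D and 484.8 in TS culture. As for CHPF, DR was highest and the 2D libraries of both lines lowest. The 5 genes were picked for likeness to CHPF over these same libraries, so a pattern like that of CHPF follows from the choice. BTG1, an antiproliferative factor, lay between 5.12 and 8.85 in parental and between 25.3 and 30.6 in drug-resistant libraries. H3C6 is a histone gene of a family with near-identical copies, so its reads may be shared with other copies. Of the members, CHPF2 was nearest to CHPF (0.58), with 295 genes nearer, and XYLT1 farthest (1.28).

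**Figure D5:**
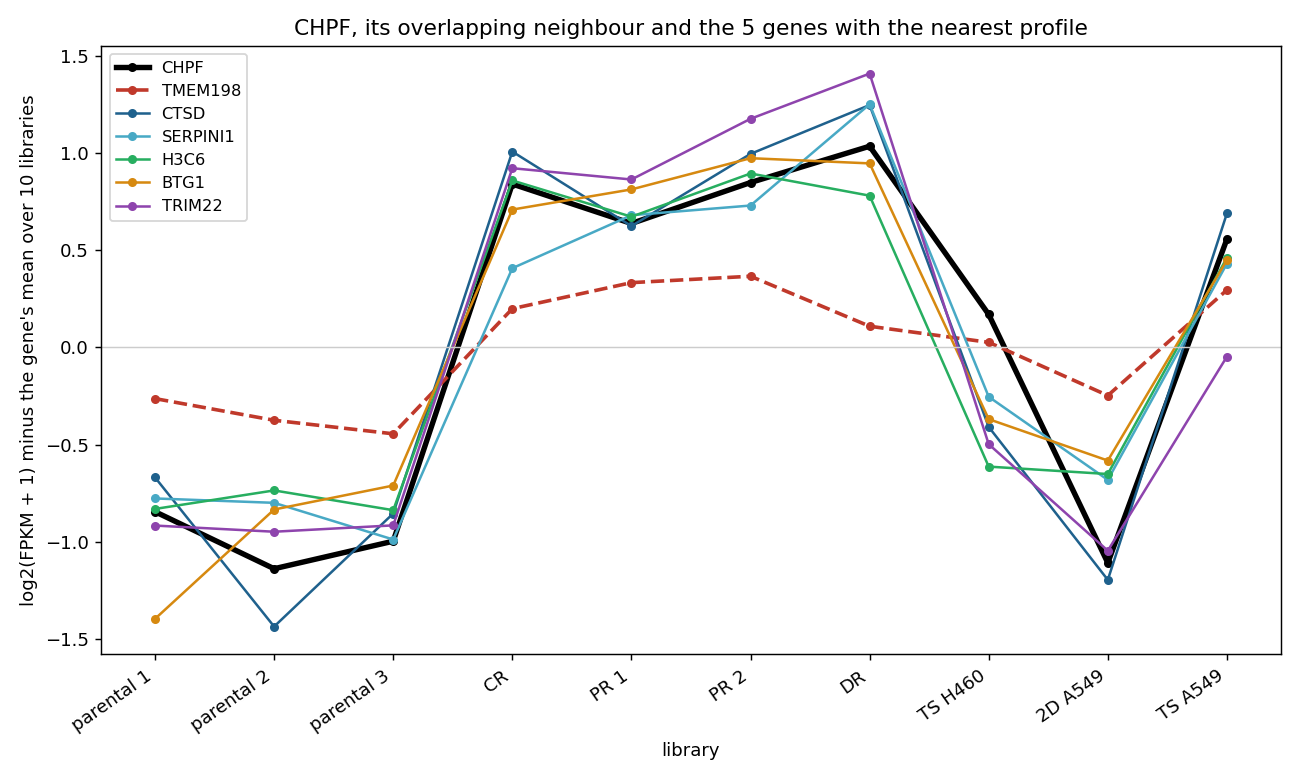
log2(FPKM + 1) of CHPF, of TMEM198, which overlaps it, and of the 5 genes of nearest profile, each minus its mean over the 10 libraries (vertical axis), by library (horizontal axis, lines only join the points of a gene). All 7 genes are lower in the 3 parental libraries and in 2D A549 cells than in the 4 drug-resistant libraries.

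TMEM198, which encodes a membrane protein, starts within the 5′ end of CHPF on the other strand, and the use of strand in counting is not stated, so reads from the 125 shared bases cannot be assigned to either gene. It was counted at 50, 28 and 25 reads in parental cells, 146 in CR, 173 and 143 in PR and 141 in DR, with 86 in TS H460 cells and 47 in 2D against 157 in TS A549 cells. The 4 drug-resistant libraries lay above the parental ones, as did TS H460 cells. At a mean of 0.482 RPM in parental and 2.04 in drug-resistant cells, it passed the filter through the latter alone, so no test is given. CHPF itself had between 2155 and 14223 reads per library, so TMEM198 was counted far more sparsely.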

How the data were processed

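The study sequenced poly(A) RNA libraries prepared with a TruSeq kit. The submitters' processing notes name bcl2fastq 1.8.4, Trimmomatic, HISAT2 2.1.0, StringTie 2.1.3b and GRCh38, without roles. The authors deposited 1 table with whole-number read counts per gene that were not normalized. The authors also gave FPKM values, in which reads are scaled by the length of the transcript and the size of the library. The deposited TPM values are the FPKM rescaled by a constant per library and were not used in tests. Use of strand and treatment of shared reads are not given in the sources used here.

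Groups were taken from the sample titles. Counts were tested with the quasi-likelihood F-test of edgeR 4.0.16 (R 4.3.3, TMM factors, mean CPM of at least 0.5 over the libraries fitted, two-sided, Benjamini-Hochberg adjustment over all genes fitted, threshold 0.05). The standard error is the log2 fold change divided by the square root of F. The comparison with drug-resistant cells took CR, PR and DR libraries as samples of 1 group, so its spread holds differences between drugs. Single libraries were compared on log2(FPKM + 1), without a test, against a limit of 2-fold, among 12331 genes with a mean FPKM of at least 1. Alternatives were DESeq2 1.42.0, limma 3.58.1 on log2(FPKM + 1), other scaling and filters, a pseudocount of 0.1, the form of library name and each replicate left out, and, added after seeing the data, CR or DR left out. The fit was also run on simulated counts with dispersions estimated from these libraries, and the outcome is not reported here.

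Gene positions are from GENCODE 29 and promoter windows from RefSeq (GRCh38.p14). The members, the 8 gene lists and the markers were chosen with earlier results of these data known. Named are the members, list genes, neighbours of CHPF and the 5 genes of nearest profile. Python 3.11.15 with pandas 2.3.3 and numpy 2.4.6 was used for descriptive values and matplotlib 3.10.9 for figures. Values of 1 list gene are not reported here, and CR A549 cells were not analysed here.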

Additional observations from a re-analysis of the deposited data

Results flagged for a closer look

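For 4 members, the TS cells of both lines moved in opposite directions from 2D cells, outside the range of the 3 parental libraries in H460 cells. This difference between lines was not tested, since each line has a single TS library and A549 cells a single 2D library. In A549 cells there is thus no spread to set a difference against. CHSY1, a chain-elongating enzyme, differed on the log2(FPKM + 1) scale by 1.28 in H460 and by -0.28 in A549 cells. CHSY3, its relative, differed by -0.31 in H460 and by 0.51 in A549 cells, where its FPKM stayed under 1. CHPF2 differed by -0.29 in H460 and by 0.24 in A549 cells, and CHST11 by 0.32 and -0.26. The FPKM of CHST11 in TS H460 cells, 1.77, was close to that in parental 1, 1.68. CHSY1 was more than 2-fold apart in H460 cells on this scale, and CHSY3 in A549 cells had 2.65 times the FPKM in TS as in 2D culture.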

How the results depend on the processing

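Of 534 member differences with a test under alternatives, 471 kept their direction and their side of the threshold, 23 passed it newly, 15 were lost and 25 changed sign, none of which was past the threshold in the comparison reported. For PR cells, the fit of 4 libraries without a block is the same as that without parental 3, and both are counted here. Precision is limited by the number of libraries, with 1 for CR, DR, both TS cells and 2D A549. Upper-quartile scaling moved the median of all genes from 0.011 to 0.16 for drug-resistant and from -0.02 to 0.16 for PR cells, and the cause of the following changes was not tested.

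Members called in PR cells numbered 6 with upper-quartile factors, library size or DESeq2 and 5 with limma, against 3, and between 1 and 4 with a replicate left out. Calls over all genes in PR cells were between 893 (without PR 2) and 4967 with a replicate left out. For TS cells they were 466 with DESeq2, 18 with limma and between 6 (without parental 2) and 37 with a replicate left out, against 42. For A549 cells they were between 2391 (without parental 2) and 3584, against 3677. For PR against CR and DR they were 345 with DESeq2, 372 with limma, 509 with no filter and between 0 and 140 (without parental 1) with a replicate left out, against 0. With a pseudocount of 0.1, genes over 2-fold numbered 2127 in DR, 811 in TS H460 and 1476 in TS A549 cells, against 1403, 419 and 945, and members, CHPF included, in TS A549 cells 4 against 2.

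PR and parental libraries share replicate numbers 1 and 2, but the labels do not say that a number marks a shared culture, and deviations of same-numbered samples correlated at 0.0921 over 15307 genes, so they were not taken as pairs. With the replicate number as a block, edgeR called 5264 genes, against 4967 for the same 4 libraries without it.

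Signs changed as follows. CHST12 changed with limma in drug-resistant (-0.11), TS (0.053), A549 (-0.26) and PR against CR and DR (0.13) cells. In PR cells it changed with upper-quartile factors (0.15), library size (0.086), the block (0.053), no block in 4 libraries (0.045) and some replicates left out (range -0.15 to 0.045), and in TS cells with some replicates left out (-0.049 to 0.067). CHPF2 in A549 cells changed with library size (0.0050), DESeq2 (0.00044) and some replicates left out (-0.032 to 0.040), and in PR against CR and DR with no filter (-0.012). In the latter comparison CHST11 changed with library size (0.091), limma (0.056) and without PR 1 (range -0.20 to 0.098), and CHSY1 with filterByExpr (-0.037), no filter (-0.057), the form of library name (-0.11) and without PR 1 (-0.13).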

Other observations

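The genes beside CHPF on chromosome 2 were also described. ASIC4, an acid-sensing ion channel gene that ends just before CHPF, had 0, 0 and 2 reads in parental cells, 66 and 108 in PR cells, 3 in CR and 10 in DR cells. It passed the filter on low counts through PR cells alone, so no test is given. Its FPKM was at most 0.622 in any library. OBSL1, the next protein-coding gene on the other side, which encodes a cytoskeletal adaptor, was higher in A549 than in H460 cells (log2 fold change 4.22, SE 0.43, edgeR adjusted p = 0.00119). In drug-resistant cells it had 0.88 (SE 0.39, adjusted p = 0.102).

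Between the lines, further genes of the pathway differed beside the members. In A549 cells CHST15 (log2 fold change -1.76, SE 0.23, edgeR adjusted p = 0.00251), the dermatan epimerase DSEL (-4.60, SE 0.45, adjusted p = 0.00101) and SRGN (-3.06, SE 0.32, adjusted p = 0.00122) were lower. CD44 was higher (2.44, SE 0.66, adjusted p = 0.0371), as was HEXA (4.33, SE 0.97, adjusted p = 0.0200). The fit took 1 shift of TS culture for both lines, whereas CD44 moved in opposite directions. Its FPKM was 86.9 in 2D A549 cells against 36.8 to 39.9 in parental H460 cells. In TS culture it was 134.7 in A549 cells against 8.25 in the 1 TS H460 library, so the size of its difference depends on the culture. In FPKM, SRGN was 53.4 and 47.9 in 2D and TS A549 cells against at least 329.2 in every H460 library. Each line stands for itself here, so a difference between them is not one between kinds of tumour.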
